A study of Caenorhabditis elegans with 2 samples.

Results

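Peaks between divergent gene pairs are the sites of the worm E2F factor EFL-1 that lie close to the starts of protein-coding genes on opposite strands. They were chosen by position alone: the summit of an optimal peak had to be within 500 bp of annotated transcript starts of at least 2 protein-coding genes, at least 1 on each strand. Of the 2802 optimal peaks on the nuclear chromosomes, 437 met this rule (15.6%). They are set beside 1366 other promoter peaks, whose summits had coding starts of 1 strand only within 500 bp, and beside 999 peaks with no coding start in that distance. The peaks come from chromatin immunoprecipitation and sequencing of young adult hermaphrodites of Caenorhabditis elegans, strain YL478, a transgenic line in which EFL-1 carries GFP and FLAG at its C terminus. An antibody to GFP was used on sonicated chromatin of whole animals, although 1 label names the antibody after efl-1. There was 1 group with 2 biological replicates, each with 1 technical replicate, so no condition is compared, and the control that the labels name was not analysed here. Whole animals mix all tissues, the tagged protein comes from a transgene, and a peak does not show in which cells EFL-1 was bound. Signal values are the authors' own value per peak, on a scale that the sources used here do not state, and read depth is unknown from the lists.

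E2F proteins bind DNA together with a DP partner, which is DPL-1 in the worm, and control genes that dividing cells need for DNA replication and mitosis. EFL-1 and DPL-1 can act with the retinoblastoma-like protein LIN-35 in the DREAM complex, which represses many such genes, and EFL-1 is also needed in the germ line for oogenesis and early embryogenesis. In a divergent gene pair the promoters lie back to back: transcription runs leftward from the minus-strand gene and rightward from the plus-strand gene, and the DNA between them is shared upstream sequence. Many worm transcripts have their first bases replaced by a spliced leader, so an annotated start is often the splice site and not the base where transcription began. Below, pairs are written with the minus-strand gene first.

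The DNA between the starts is shown for 5 of the strongest peaks of the set, with starts at most 300 bp apart, so that the whole shared upstream sequence can be read. Each line runs from the base after the minus-strand start to the base before the plus-strand start, on the plus strand of WBcel235 (ce11), read from RefSeq's copy of that genome. Capitals mark the E2F core, which is TTCCCGC or TTCGCGC and also TTGCCGC or TTGGCGC, and the CHR element of DREAM targets, which is TTCGAA or TTTGAA. Both were searched on both strands, so that GCGCGAA and TTCAAA are matches on the minus strand, and overlapping matches were all kept. Coordinates in the order of the lines are chrV:4175641-4175881, chrIII:4176160-4176439, chrIV:13093796-13094006, chrIV:12724761-12724985 and chrII:9938972-9939039.
coh-4/pid-5: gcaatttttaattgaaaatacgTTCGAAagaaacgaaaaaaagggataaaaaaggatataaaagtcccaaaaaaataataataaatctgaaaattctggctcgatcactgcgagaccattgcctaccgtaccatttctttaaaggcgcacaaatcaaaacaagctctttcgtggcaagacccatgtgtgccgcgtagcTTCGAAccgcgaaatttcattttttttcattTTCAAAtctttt
hrde-1/C16C10.13: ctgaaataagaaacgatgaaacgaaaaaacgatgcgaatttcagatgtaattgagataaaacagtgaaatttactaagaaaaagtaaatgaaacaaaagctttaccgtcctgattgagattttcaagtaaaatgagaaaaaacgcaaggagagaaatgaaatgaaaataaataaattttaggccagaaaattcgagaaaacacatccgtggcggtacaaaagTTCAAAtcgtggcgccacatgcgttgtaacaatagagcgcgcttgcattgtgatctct
prcc-1/C39E9.12: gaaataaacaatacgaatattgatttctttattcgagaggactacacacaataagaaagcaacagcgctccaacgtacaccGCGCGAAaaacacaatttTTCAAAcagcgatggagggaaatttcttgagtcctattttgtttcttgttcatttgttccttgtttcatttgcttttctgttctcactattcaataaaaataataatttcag
T23F6.3/rbd-1: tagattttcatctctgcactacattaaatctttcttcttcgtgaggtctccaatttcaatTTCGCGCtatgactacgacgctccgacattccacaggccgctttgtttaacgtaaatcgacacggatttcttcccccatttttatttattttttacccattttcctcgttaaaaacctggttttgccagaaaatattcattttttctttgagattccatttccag
C05C10.7/C05C10.5: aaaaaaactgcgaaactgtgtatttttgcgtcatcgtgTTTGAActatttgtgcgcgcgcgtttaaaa

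The 5 stretches differ in what they hold near the summit. Between coh-4, which encodes a meiotic cohesin subunit, and pid-5, a gene of the piRNA silencing pathway, the summit lay 175 bp from coh-4 and 67 bp from pid-5. No E2F core was found there, while TTCGAA was centred 26.5 bp from the summit. Between hrde-1, the gene of a germ line nuclear Argonaute, and C16C10.13 there was also no core, and TTTGAA was centred 23.5 bp from the summit. TTCGCGC was centred 7 bp from the summit of prcc-1/C39E9.12 and 14 bp from that of T23F6.3/rbd-1, where rbd-1 encodes a protein of ribosomal RNA processing. In C05C10.7/C05C10.5 the starts were 68 bp apart, the summit lay 1 bp beyond the plus-strand start, and the core that the peak had was 95 bp from the summit, outside the printed stretch. The stretches of prcc-1/C39E9.12 and T23F6.3/rbd-1 end in cag directly before the plus-strand start, the letters that precede a splice acceptor in the worm.

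Of the 25 strongest peaks of the set, 19 had at least 1 gene in one of the 20 gene lists described below, against 189 of all 437. The highest signal, 2293 (rank 2 of all nuclear peaks), lay 255 bp from tbb-1, a beta-tubulin gene, and 123 bp from rib-2, whose product builds heparan sulfate. It measured 1229 in replicate 1 and 1050 in replicate 2. Y53F4B.9/Y53F4B.11 followed at 1529, with 873 in replicate 1 and 661 in replicate 2. The third was cogc-2/klp-18, where cogc-2 encodes a subunit of a Golgi tethering complex and klp-18 a kinesin of the oocyte meiotic spindle. Its signal was 1448, with 788 in replicate 1 and 656 in replicate 2. C55B7.11/glh-2 had 1240, with the summit 2 bp from the start of glh-2, a germ line RNA helicase of P granules, and 96 bp from that of C55B7.11. In replicate 1 this peak measured 675 and in replicate 2 it measured 588. In all 4 peaks replicate 1 had the higher value.

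The next 5 peaks had signals from 1205 to 1021. The peak between npp-3, a nucleoporin gene, and top-2, the gene of DNA topoisomerase II, had 1205, with 481 in replicate 1 and 719 in replicate 2. The peak between ran-1, the GTPase that directs nuclear transport, and dkc-1, the gene of the pseudouridine synthase dyskerin, had 1128, with 508 in replicate 1 and 621 in replicate 2. These were the only peaks among the 10 strongest with the higher value in replicate 2. At dvc-1/ima-1 the signal was 1025; dvc-1 encodes a protease that removes proteins crosslinked to DNA, and ima-1 an importin alpha. At smn-1/klp-16 it was 1024; smn-1 is the survival of motor neuron gene and klp-16 a minus-end kinesin gene. The peak of rec-8/mex-5, between a meiotic cohesin gene and the gene of an RNA-binding protein that polarises the embryo, had 1021, with 578 in replicate 1 and 442 in replicate 2, and no E2F core within 100 bp of its summit.

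The remaining peaks among the 25 strongest had signals from 974 to 649. Of the 25, only rec-8/mex-5, coh-4/pid-5, hrde-1/C16C10.13 and bmk-1/coh-3 had no E2F core within 100 bp of the summit. All the others had a core there. The P granule list also holds the securin gene ify-1, so ify-1/rpl-22 enters the count over all peaks. Counted over the lists of meiotic chromosomes, of oogenesis and of P granules, 8 of the 25 strongest peaks had a germ line gene, against 31 of all 437. Besides glh-2, rec-8 and mex-5 these were spn-4, an embryonic RNA-binding protein gene, beside spe-39 (974), mei-2, a katanin subunit gene, beside syp-6, a synaptonemal complex gene (940), coh-4 beside pid-5 (933), hrde-1 beside C16C10.13 (929), puf-3, a Pumilio family gene, beside afmd-2 (875), and coh-3, a cohesin gene, beside the kinesin gene bmk-1 (649). Over the lists of replication, mitosis and repair it was 7 of the 25, against 61 of all 437. Genes of the mitosis list were gpr-2, which acts in spindle positioning, beside the Mediator gene rgr-1 (955), knl-3, a kinetochore gene, beside T10B5.3 (749), and the kinesin gene klp-15 beside ctnb-1 (717). The histone-binding subunit gene lin-53, shared by DREAM and other chromatin complexes, stood beside nra-2 (894), and clsp-1, the claspin gene of the replication checkpoint, beside eef-2, the gene of translation elongation factor 2 (790). The others were W05F2.3/W05F2.6 (801), prcc-1/C39E9.12 (792), T23F6.3/rbd-1 (703), C05C10.7/C05C10.5 (702) and rpb-12/aly-2 (668), in which rpb-12 encodes a subunit of RNA polymerases and aly-2 an mRNA export factor.

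EFL-1's own partners differed in this respect. The peak of lin-35 was shared with vps-51, had a signal of 317 (rank 263), with 186 in replicate 1 and 131 in replicate 2, and held neither an E2F core nor a CHR element within 100 bp of the summit. The strongest promoter peaks of efl-1 (382) and dpl-1 (68.2) were near starts of 1 strand only and do not belong to the set.

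Across the whole set, the signal was higher than at other promoter peaks. The 437 peaks ranged from 40.3, at ccf-1/trap-4, to 2293, with a median of 105.6 and quartiles of 65.1 and 199.6. The 1366 other promoter peaks ranged from 40.2 to 2554, with a median of 83.2 and quartiles of 55.3 and 151.3. The ranges overlapped almost completely. The 701 strongest of all optimal peaks held 169 of the 437 (38.7%), against 382 of the 1366 (28.0%), a difference of 10.7 points with a 95% interval of 5.63 to 15.9 (Newcombe). Intervals here and below cover counting error only, and peaks and genes are not independent replicates. The same order was present in each replicate: the median was 61.0 in replicate 1 and 49.9 in replicate 2 for peaks between opposite starts, against 48.7 in replicate 1 and 39.3 in replicate 2 for the other promoter peaks.

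The replicates ranked these peaks alike. Across the 436 peaks with a region in both replicates, Spearman's rho of the signals was 0.847, against 0.752 across 1349 other promoter peaks, as a description across peaks of the same 2 libraries. The values differed by at most a factor of 2 at 384 of the 437 peaks. Replicate 1 had the higher value at 297 peaks and replicate 2 at 139. A peak was called present in both replicates when it overlapped, by at least 1 bp, a region among the 2802 strongest nuclear regions of each replicate. This held for 357 of the 437 (81.7%, exact 95% interval 77.7 to 85.2), against 1004 of the 1366 (73.5%), a difference of 8.19 points (3.68 to 12.3). Part of the overlap is built in, because the optimal list was called on both replicates together. When all optimal peaks were divided by signal into 4 groups of nearly equal size, the share in both replicates was 99.4, 96.6, 77.0 and 14.1% from the strongest group to the weakest, against 99.7, 98.0, 67.9 and 19.2% of the other promoter peaks. The set was thus the higher only in the third group, so the difference over all peaks was not present at each level of signal. The summits of the replicates were a median of 16 bp apart and within 50 bp at 402 of 436 peaks (92.2%), against 80.7% of the other promoter peaks. Fewer peaks of the set were in the weakest group (14.6%, against 22.5%), and neither rho nor summit distance was compared at like signal. At pri-2/W02D9.2 (147) replicate 1 measured 81.5, while no region of replicate 2 overlapped the peak.

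**Figure D1:**
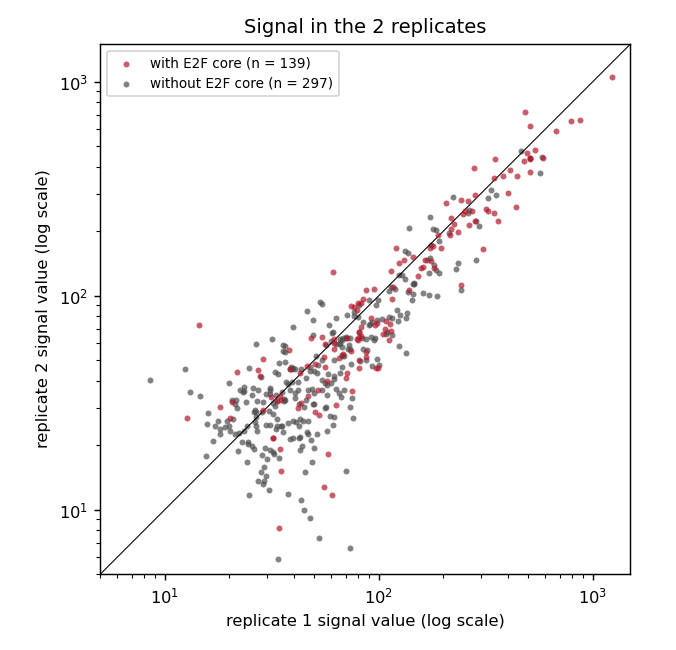
Signal value in replicate 1 (horizontal axis, log scale) and replicate 2 (vertical axis, log scale) of the 436 peaks between opposite starts with a region in both, with points coloured by whether an E2F core lies within 100 bp of the summit. The points follow the diagonal closely at high signal and spread at low signal, and 297 of them lie below it.

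Most summits lay in the shared DNA, some in its middle and others nearer to a start. In 425 of the 437 the nearest starts were in divergent order, and in the other 12 they overlapped, with the plus-strand start to the left of the minus-strand start. The summit lay between the starts in 397 (90.8%, 87.7 to 93.4), and of the remaining divergent cases 14 were past the plus-strand start and 14 past the minus-strand start. In 145 of the 397 the starts were over 500 bp apart, where the rule allows the summit no other place. The share of 90.8% is therefore partly set by the rule. The divergent starts were a median of 399 bp apart, with quartiles of 267 and 558 and a range of 11 to 946. When each stretch was divided into 3 equal parts, 213 of 397 summits lay in the middle part (53.7%), 84 in the part next to the minus-strand start and 100 in the part next to the plus-strand start. For wide pairs the rule itself keeps the summit from the ends. Where the starts were at most 500 bp apart, so that it did not, 126 of 252 summits were in the middle part (exact 95% interval 43.7 to 56.3%). Of all 397 summits between the starts, 190 were closer to the minus-strand start, 206 to the plus-strand start and 1 equally close. The nearer start was a median of 134 bp away and the farther one 278 bp.

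**Figure D2:**
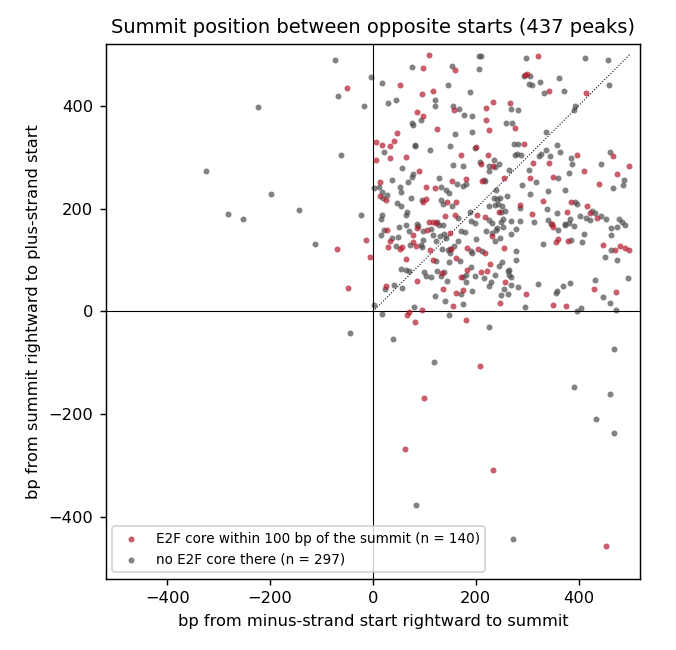
Position of each of the 437 summits, as bp from the minus-strand start rightward to the summit (horizontal axis) and from the summit rightward to the plus-strand start (vertical axis). Points in the upper right quadrant, 397 in all, lie between the starts, and the dotted diagonal marks equal distance to both.

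The closest starts in divergent order were those of F32D8.14/F32D8.5, 11 bp apart with a signal of 119.5, F25H9.6/F25H9.7 at 14 bp (101.8), aptf-2/pik-1 at 17 bp (292), Y59E9AL.36/nbet-1 at 19 bp (132) and Y32H12A.8/W03A5.2 at 28 bp (46.5). None of these 5 peaks had an E2F core. Another peak near Y32H12A.8/W03A5.2 (189), with starts in overlapping order, had 2 cores. At the 500 bp limit, the last peaks inside were epc-1/Y111B2A.12 (farther start at 496 bp, signal 123.8), clic-1/srr-10 (497 bp, 121), attf-2/F09G2.2 (497 bp, 289), simr-1/C06A5.3 (498 bp, 172) and pri-2/W02D9.2 (498 bp, 147). The first outside were vps-15/hmg-12 (501 bp, 131), nucl-1/daf-31 (501 bp, 72.6), tars-1/kel-1 (506 bp, 211), nhr-142/F44E7.9 (507 bp, 100.8) and ifet-1/rps-1 (507 bp, 255). Signals of these 5 ran from 121 to 289 inside the limit and from 72.6 to 255 outside it.

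The 437 peaks named 431 distinct pairs and 861 genes, and 7 of the peaks had 3 genes within 500 bp. In 6 pairs 2 peaks shared the same genes, among them spn-4/spe-39, where both summits lie in 1 region and share its replicate values. Of the 437 summits, 379 were intergenic (86.7%), against 943 of the other 1366 (69.0%), a difference of 17.7 points (13.4 to 21.5). The rest of the 437 were in introns (29), non-coding exons (24) and coding exons (5). Part of the intergenic difference is set by the rule, since a summit between divergent starts lies upstream of both genes. Other promoter peaks can lie inside their gene. Starts of non-coding genes lay within 500 bp of 67 summits (15.3%), against 11.1% of the other promoter peaks, but a tRNA gene was near only 2 (0.458%), against 26 (1.90%). The regions had a median width of 257 bp and a median GC content of 38.3%, against 290 bp and 37.8%.

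EFL-1 summits were dense in sequence of this kind. The DNA within 500 bp of coding starts on both strands came to 1.00 Mb, or 1.00% of the nuclear sequence, and held 436 summits per Mb. The DNA near starts of 1 strand only came to 22.1 Mb and held 61.7 summits per Mb, and the rest held 13.0. The 22.1 Mb also includes sequence downstream of the starts, inside genes, so these densities are not of like sequence. A preference for divergent over other promoters was not tested. Among 19973 annotated protein-coding genes, 2187 had a promoter peak (10.9%) and 861 stood beside a peak of this set (4.31%). The 3682 genes in an annotated divergent pair, with starts at most 1000 bp apart, had a promoter peak in 999 cases (27.1%), against 1188 of the other 16291 genes (7.29%), a difference of 19.8 points (18.4 to 21.4). A shared peak can count for both of its genes, so these gene counts are not independent. Of the 2187 genes with a promoter peak, 849 (38.8%, 36.8 to 40.9) had no promoter peak other than one that also lay near a gene on the other strand. With a window of 200 bp this was 20.1%.

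An E2F core lay within 100 bp of the summit at 140 of the 437 peaks (32.0%, 27.7 to 36.6), against 429 of the 1366 other promoter peaks (31.4%). The difference of 0.631 points had an interval of -4.26 to 5.75, so the kinds of promoter peak were not told apart by the core, and a difference of up to 5.75 points is within the interval. For scale, the core was in 5.95% of the flanks 400 to 500 bp from the same summits, in 79 of 1427 windows of 201 bp at the midpoint of divergent pairs without a peak (5.54%), and in 1374 of 19973 windows of 201 bp centred 150 bp before the outermost start of every coding gene (6.88%). The match was centred a median of 19 bp from the summit and within 50 bp at 128 of the 140. A CHR element was within 100 bp of 284 summits (65.0%), against 59.6%, a difference of 5.40 points (0.141 to 10.5). This short element is common: it was in 58.8% of the midpoint windows of pairs without a peak and in 55.9% of all promoter windows. In the midpoint windows of pairs with a peak it was in 58.0%, so those windows showed no excess. In the flanks 400 to 500 bp from the summit it was found at 43.9% of the set and 49.7% of the other promoter peaks. By the 4 groups of signal, strongest first, CHR was within 100 bp at 70.4, 68.4, 56.3 and 56.2% of the set. The other promoter peaks had 69.1, 60.2, 53.0 and 54.1%, and no interval was computed for these differences. Both elements were present at 106 of the 437 peaks and neither at 119.

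**Figure D3:**
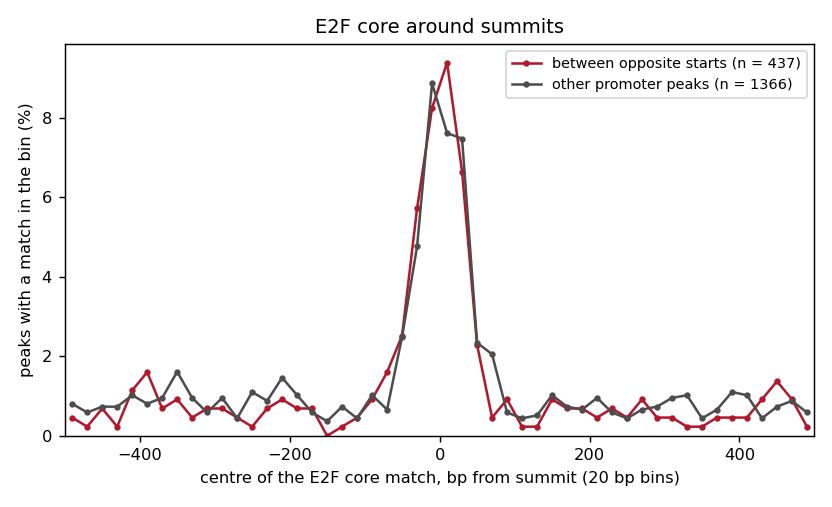
Share of peaks with an E2F core centred in each 20 bp bin from 500 bp left to 500 bp right of the summit, for the 437 peaks between opposite starts and the 1366 other promoter peaks. Both lines have their maximum beside the summit, at 9.38% of the peaks between opposite starts, and both are low beyond 100 bp.

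Within the set, peaks with the core were stronger. The 140 with a core had a median signal of 172.5, with 93.5 in replicate 1 and 76.6 in replicate 2, and the 297 without had 88.2, with 49.4 in replicate 1 and 40.2 in replicate 2. Peaks with at least 2 cores had a median of 492 (n = 27), and those with 1 core a median of 165 (n = 113). Of the same 4 groups of signal, the strongest had a core at 50.9% of the peaks between opposite starts, against 53.7% of the other promoter peaks, and the weakest at 12.5%, against 13.4%. The interval of the difference included 0 in each of the 4 groups, and the widest gap, in the third, was -9.36 points (-17.3 to 0.767). The core was between the starts in 118 of the 126 divergent cases with a core and the summit between. The core and the summit were nearer to the same start in 120 of the 126. Both counts are largely set by the choice of cases, with the summit between the starts and the core searched for only near it.

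Seen from the annotation, 424 of 1851 divergent pairs with starts at most 1000 bp apart held a peak (22.9%, 21 to 24.9). The share was 18.7% where the starts were 0 to 199 bp apart, 33.1% at 200 to 399 bp, 30.1% at 400 to 599 bp, 20.1% at 600 to 799 bp and 2.08% at 800 to 1000 bp. The rule leaves little room in the widest pairs, since the summit must be within 500 bp of both starts. Pairs with an E2F core between their starts held a peak more often, in 135 of 339 cases (39.8%), against 289 of 1512 pairs without (19.1%), a difference of 20.7 points (15.2 to 26.3). At 200 to 399 bp it was 49 of 66 pairs with a core (74.2%, 62.0 to 84.2), against 116 of 433 without (26.8%, 22.7 to 31.2). The difference there was 47.5 points (35.0 to 57.3). With a window of 200 bp the shares were 30.3% with a core and 11.6% without, and without a core it was 15% among the stronger 1401 peaks. With the 500 bp window and all optimal peaks, the difference was 34.8 points (22.3 to 46.2) at 400 to 599 bp. At 600 to 799 bp it was 15 points (5.45 to 25.4). At 17 pairs with a core and starts under 200 bp apart, 11 held a peak.

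**Figure D4:**
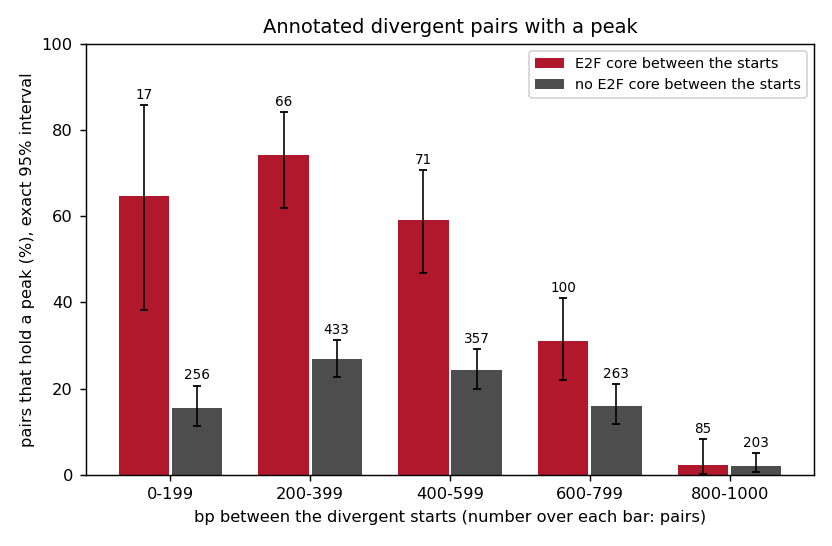
Share of annotated divergent pairs that hold a peak (vertical axis, with exact 95% intervals) by the distance between their starts in bp, for pairs with and without an E2F core between the starts; the number over each bar counts the pairs. The share is higher with a core in each of the first 4 distance classes, and in the last it is 2.35% with a core and 1.97% without.

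Peaks did not follow the pairs evenly over the chromosomes. Chromosome X held 1 of the 437 peaks, at sec-15/C28G1.2, with a signal of 40.8, 19.6 in replicate 1 and 26.04 in replicate 2, and its summit past the plus-strand start. X has 85 annotated divergent pairs, so the share was 1.18% (0.0298 to 6.38), against 423 of 1766 autosomal pairs (24.0%), a difference of -22.8 points (-25 to -17.2). EFL-1 peaks of other kinds were also few on X, which held 30 of the 1366 other promoter peaks (2.2%) and 84 of all 2802 optimal peaks (3%), against 0.229% of the set. None of the 10 X pairs with an E2F core between the starts held a peak. Among pairs without an optimal peak, 10 of 84 on X (11.9%, 5.86 to 20.8) held a weaker region of the list called on both replicates, against 333 of 1343 on the autosomes (24.8%, 22.5 to 27.2). On the autosomes the share was highest on III, at 35.6% of 312 pairs, and lowest on V, at 14.4% of 436.

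Gene lists gave the set's content. Beside the 4.31% of all coding genes, 36 of 84 genes of mitosis and the cell cycle stood beside a peak of the set (42.9%, 32.1 to 54.1), as did 35 of 81 ribosomal protein genes (43.2%, 32.2 to 54.7), 15 of 40 genes of nuclear pores and transport (37.5%), 17 of 48 replication genes (35.4%), 11 of 33 proteasome genes (33.3%) and 12 of 39 genes of meiotic chromosomes (30.8%). P granule and small RNA genes came to 11 of 47 (23.4%), respiration genes to 15 of 66 (22.7%), chromatin regulators to 8 of 38 (21.1%), repair and checkpoint genes to 11 of 53 (20.8%), splicing factors to 12 of 59 (20.3%), translation factors to 8 of 43 (18.6%) and DREAM and related synMuv genes to 6 of 33 (18.2%). The 11 P granule and small RNA genes include the securin gene ify-1, which the mitosis list also counts. Genes of oogenesis and the early embryo were at 8 of 61 (13.1%), mitochondrial ribosomal proteins at 9 of 70 (12.9%) and aminoacyl-tRNA synthetases at 3 of 31 (9.68%). These lists were also high in promoter peaks of any kind, in or outside the set. Such a peak was near 58 of the 84 mitosis genes and 62 of the 81 ribosomal protein genes. It was near 26 of the 40 nuclear pore genes and 24 of the 39 meiotic genes, against 10.9% of all genes. High shares of these lists are thus not particular to the set, and a difference in content from other promoter peaks was not tested. The oogenesis list had many promoter peaks outside the set, with 36 of its 61 genes near any peak. The median signal beside its 8 genes of the set was 622.8, against 110.6 beside all 861 genes. How many genes a list can have here depends on how many are in an annotated divergent pair: 3682 of all 19973 genes were, with 47 of the 84 mitosis genes and 15 of the 61 oogenesis genes. Of all genes in such a pair, 23.2% stood beside a peak of the set. The same share was highest for DREAM and synMuv genes, at 85.7%, but only 7 of them are in such a pair. It was 76.6% for mitosis, 75% for nuclear pores and transport, 72.9% for ribosomal proteins and 72.7% for chromatin regulators. Replication had 68%, meiotic chromosomes 63.2% and oogenesis 53.3%. Mitochondrial ribosomal proteins had 33.3%, and the synthetases had 25%, which is near that of all genes. The other growth and germ line lists had from 40% (translation factors) to 52.4% (proteasome).

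**Figure D5:**
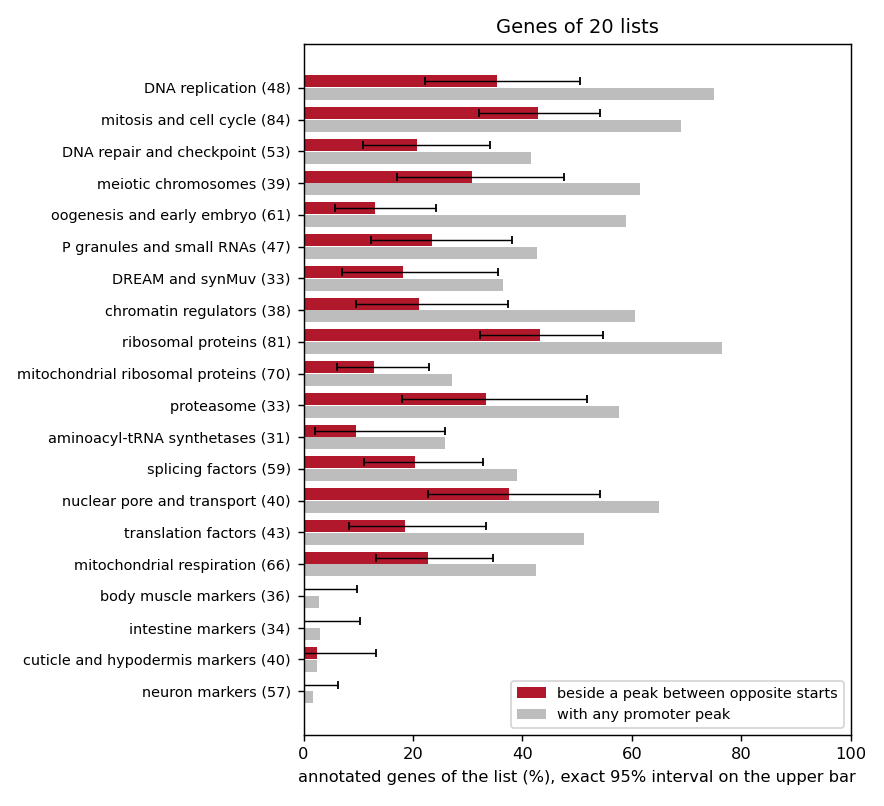
Share of the annotated genes of each of 20 lists (number in brackets) that stand beside a peak between opposite starts, with exact 95% intervals, and below it the share with any promoter peak. Among the growth and germ line lists the upper bars run from 9.68% to 43.2%, and 3 of the 4 somatic marker lists are at 0.

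Markers of somatic tissues were nearly absent. None of 36 body muscle, 34 intestine or 57 neuron markers stood beside a peak of the set, which leaves upper limits of 9.74, 10.3 and 6.27%. Of 40 cuticle and hypodermis genes, the collagen gene bli-6 was the only one, at hrpf-2/bli-6, with a signal of 51.95, 34.1 in replicate 1 and 17.4 in replicate 2. Together that was 1 of 167 markers, 4 of which had any promoter peak. Only 7 of the 167 are in an annotated divergent pair, so the set could hold few of them, and 1 of 7 is too few to set apart from the 23.2% of all genes in a pair.

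Beside the peaks already described, the strongest of each list were as follows. In the replication list mcm-3, the gene of a subunit of the replicative helicase, shared 584 with C25D7.15, after top-2. In the repair list polk-1, a translesion polymerase gene, shared 338 with gpr-1, and in the chromatin list htz-1, the gene of the histone variant H2A.Z, shared 415 with the cohesin release gene wapl-1, followed by hmg-4/T20B12.3 (280). The strongest ribosomal protein genes were rpl-20, beside Y17G9B.5 (639, with 333 in replicate 1 and 313 in replicate 2), and rpl-15, beside K11H12.8 (511). Neither had an E2F core. Proteasome genes were led by rpn-2/C23G10.7 (345) and rpn-1/ribo-1 (176), and splicing factors, after prcc-1, by snr-2/W08E3.4 (259). Respiration genes were led by ndub-8/cup-14 (261) and cox-6B/Y71H2AM.20 (199.6). Mitochondrial ribosomal proteins were led by mrps-6/rpn-8 (140) and mrps-35/sws-1 (138), synthetases by ears-2/uncp-18 (101.7) and sars-2/W03B1.9 (67.95), and translation factors, after eef-2, by eef-1A.1/rfc-4 (321).

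In 29 of the 437 peaks both genes were in a list, in 160 only 1 gene was, and in 248 neither. After npp-3/top-2, rec-8/mex-5 and clsp-1/eef-2, the strongest of the 29 joined genes of various lists. At rpl-12/lin-54 (498, with 272 in replicate 1 and 248 in replicate 2) a ribosomal protein gene faced the DNA-binding subunit of DREAM, and the summit was 46 bp from rpl-12 and 347 bp from lin-54. At polk-1/gpr-1 (338) it was 18 bp from polk-1 and 324 bp from gpr-1. The kinetochore checkpoint gene bub-1 faced lin-61 (326), and the replication clamp loader gene rfc-4 faced the elongation factor gene eef-1A.1 (321). The polymerase eta gene polh-1 faced rps-22 (316), ctf-4, a replisome gene, faced eef-1G (314), and the origin recognition gene orc-5 faced the cyclin gene cyb-1 (222), where 2 cores lay near the summit. At ify-1/rpl-22 (216) the securin gene faced a ribosomal protein gene, and at mrps-6/rpn-8 (140) a mitochondrial ribosomal gene faced a proteasome gene. Pairs with a ribosomal protein gene on both sides, named after their values were seen, were rps-14/rpl-36 (115.3), rps-10/rpl-24.1 (114) and rpl-39/rps-30 (101.6), and none had a core.

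The position of the summit relative to the genes was set out for the lists of cell division and of ribosomal proteins. In 53 peaks with the summit between the starts, exactly 1 of the genes belonged to the replication, mitosis or repair lists. The summit was closer to that gene in 34 of them (64.2%, 49.8 to 76.9), at a median of 135 bp from it and 191 bp from the other gene, and 30 of the 53 had an E2F core (56.6%, 42.3 to 70.2). In 28 such peaks exactly 1 gene encoded a ribosomal protein. There the summit was closer to the ribosomal gene in 9 (32.1%, 15.9 to 52.4), at a median of 287.5 bp from it and 187 bp from the other gene, and 5 had a core (17.9%, 6.06 to 36.9). Without replicate 2 the share closer to the ribosomal gene was 14.8%. Where neither gene was in the replication, mitosis or repair lists, 93 of 341 peaks had a core (27.3%, 22.6 to 32.3). These differences were not tested, and the intervals of the position shares overlap. Over whole lists, the core was near 72.7% of the repair genes, 63.9% of the mitosis genes and 52.9% of the replication genes beside a peak of the set. It was near 16.7% of the meiotic, 14.3% of the ribosomal and 6.67% of the respiration genes, and 32.3% of all 861 genes. Oogenesis, DREAM and translation factor genes had 50%, nuclear pore genes 46.7%, mitochondrial ribosomal genes 44.4% and chromatin regulators 37.5%. P granule and proteasome genes had 27.3%, splicing factors 25% and synthetases 0%. These shares rest on few genes, such as 8 of 11 for repair and 1 of 15 for respiration. Peaks such as polk-1/gpr-1 count in both the repair and the mitosis list.

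Histone genes often lie in divergent pairs, and 4 peaks of the set had a histone gene on both sides. They were chosen after their values were seen. The peak of his-67/his-68 had 144, with 52.9 in replicate 1 and 93.9 in replicate 2, his-60/his-59 had 65.2, his-61/his-62 had 58.0 and his-63/his-64 had 40.8. None had an E2F core within 100 bp of the summit. Histone genes are near-identical copies, and the sources used here do not say how reads that fit several copies were treated, so the values of single copies are uncertain.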

How the data were processed

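Only lists on build ce11 were used; the authors' ce10 lists were not. For ce11 the authors deposited a peak list per replicate (30000 regions), a joint list of both replicates, and an optimal list, cut by the irreproducible discovery rate, of 2825 peaks, of which 23 are mitochondrial and were left out (per the texts deposited beside the lists). The signal value of each region is the authors' deposited value. Aligner, peak caller, threshold and signal scale: not given in the sources used here. Adding the deposited offset to a region's start gave the summit. In each replicate, a peak took the signal of the strongest region that overlapped it.

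Starts are the 5' ends of 29314 coding transcripts of 19973 nuclear genes in Ensembl release 115 (WBcel235), after checking chromosome lengths against the regions. Shares have exact Clopper-Pearson 95% intervals and differences Newcombe intervals. With 1 group no test between groups was made. Python 3.11.15, numpy 2.4.6, pandas 2.3.3 and scipy 1.17.1 were used, and the searches were tested on simulated peaks. Members, lists and alternatives were chosen with earlier results of these data known. Named are lin-35, efl-1 and dpl-1, both genes of the 25 strongest peaks, of the 12 strongest with both genes in a list and of the 2 strongest in each list, the 5 pairs with the nearest starts and 5 on each side of the 500 bp limit, beside others said to be chosen after their values were seen. Printed sequences leave out chromosome I, and 1 stretch is not reported here. Alternatives were windows of 200 and 1000 bp, stronger and looser lists, other overlap and motif rules, other limits on pair distance, each replicate alone and, added after seeing the data, the starts of all transcripts.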

Additional observations from a re-analysis of the deposited data

How the results depend on the processing

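With 2 replicates of 1 group, no value has a test. Windows of 200 and 1000 bp gave 119 and 674 peaks, 6.27% and 29.9% of pairs with a peak, and 85.7% and 86.8% of summits between the starts; with 200 bp 58 list genes stood beside a peak. The stronger 1401 optimal peaks gave 286 peaks, a core at 41.3%, 15% of pairs and a median signal of 161.5. Taking 2 times as many regions gave a core at 27.1%, 29.4% of pairs and a median of 79.5. A core preceded by another T was near 19% of summits. A limit of 500 bp between starts gave 28.8% of pairs, and a limit of 2 times the one used gave 15.7%. Divergent order alone put 93.4% of summits between the starts. The share in both replicates was 63.8% with 50% reciprocal overlap and 99.8% over all regions. With 1 replicate left out the median signal was 51.4 to 63.3, on the scale of a single list, and the count was 413 to 415. The X share was 0 without replicate 2, and 0 in the stronger peaks. With 200 bp only 4 ribosomal protein genes stood beside a peak. There the summit was closer to the ribosomal gene in 3 of 4 peaks. The difference in core share between the kinds of promoter peak was -0.442 points among the stronger peaks and positive under the other alternatives. It was highest, at 4.08 points, with 2 times as many regions, where its interval of 0.181 to 8.22 no longer included 0. In all, 44 of 66 values of the main results and 84 of 104 of the others stayed within the limits set for a shift, which are the interval of a share or median and 1.5 times for a count. The share of genes with only shared promoter peaks was 31.1% with 2 times as many regions. The starts of all transcripts gave 439 peaks. The cause of these shifts was not tested, other than that wider windows and longer lists admit more peaks by construction. No paired analysis was possible because there is 1 group.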
